A study of Canis lupus familiaris with 36 samples.

Results

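Lymphocytes circulate between blood and lymph nodes by following sphingosine-1-phosphate (S1P), a lipid that is plentiful in blood and lymph and scarce inside lymphoid tissue. Cells that display the receptor S1PR1 leave the node towards S1P, sphingosine kinases make the lipid, and S1P lyase, encoded by SGPL1, breaks it down irreversibly and helps to keep it low in tissue. In mouse and human T cells the transcription factor FOXO1, which the PI3K-AKT pathway holds outside the nucleus, drives KLF2, and KLF2 in turn drives S1PR1. The genes described here are KLF2, S1PR1, S1PR4, SGPL1, SPHK1 and FOXO1, a set of 6 genes of this route, found on the array by symbol. Probe sets of the array were paired with 5 of the 6 symbols, out of 15115 genes in all, and KLF2 was not paired with any in the annotation used here.

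Lymphoma tissue from 35 dogs was profiled on 36 Affymetrix canine arrays, and every dog was a separate case. The tumours had been broken up mechanically and passed through a filter, with no sorting of cells in the labels, so fewer cells of a type and less RNA per cell cannot be told apart. The B phenotype comprised 2 dogs labelled BL, 10 with diffuse large B-cell lymphoma (DLBCL) and 5 with marginal zone lymphoma (MZL). The T phenotype comprised 4 dogs labelled LBT, 4 with peripheral T-cell lymphoma (PTCL) and 9 with T-zone lymphoma (TZL). The labels do not spell out BL, LBT or NBNT, the label of 1 further dog that entered no comparison. The tumours of BL, DLBCL and LBT dogs were high grade, those of MZL, TZL and NBNT dogs low grade, and PTCL was high grade except for 1 dog of intermediate grade. Subtype and grade therefore cannot be told apart. Ages at diagnosis, for which the labels give no unit, ran from 2 to 5 in BL, 4 to 14 in DLBCL, 4 to 10 in MZL, 3 to 10 in LBT, 6 to 14 in PTCL and 7 to 11 in TZL. Golden Retrievers made up 1 of 2 BL, 6 of 10 DLBCL, 4 of 5 MZL, 3 of 4 LBT, 1 of 4 PTCL and 8 of 9 TZL dogs. The other B dogs were a German Shepherd in BL, Rottweilers, a Boxer and a Labrador in DLBCL, and a Mastiff in MZL. The other T dogs were a Labrador in LBT, Boxers and a Bichon Frise in PTCL, and a Mastiff in TZL. The NBNT dog was a female Golden Retriever with an age at diagnosis of 8. Females were 1 of 2 BL, 6 of 10 DLBCL, 4 of 5 MZL, 3 of 4 LBT, 2 of 4 PTCL and 3 of 9 TZL dogs.

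Each array had a median intensity of 5.57 to 6.13. Of the 43035 probe sets, 32.2% to 35.5% reached an intensity of 16, a log2 value of 4, which served as the minimum for a measured level. Where the mean of a group lies below this minimum, the size of a log2 difference is not fully measured. Precision is limited by how many arrays each label has. The labelled lineages were set against their markers. The summed intensity of 7 B cell genes was 3715 to 7251 in B dogs and 42.0 to 3551 in T dogs, without overlap. That of 8 T cell genes was 1718 to 8203 in B dogs and 7337 to 33180 in T dogs, where the groups overlapped and the lowest T value was that of a PTCL dog. A set of 6 arrays stood apart, with an actin 3' control at a log2 value of 14.0 to 14.4 against 10.8 to 12.5 on the others. They belong to TZL replicates 1, 2 and 7, DLBCL replicates 4 and 9, and PTCL replicate 3, and 1677 of 7500 tested genes differed on them within labels. Called differences of the 5 genes that rest on these labels are mostly given with and without this set.

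Not all of the 5 genes were bright enough to test. The filter asked for the minimum in at least 4 of the 34 B and T dogs. FOXO1 reached the minimum in 34 dogs and S1PR1 in 22. SGPL1 reached it in 5, of which 4 were the LBT dogs and 1 a PTCL dog, so that this gene entered the tests only through the label in which it was high. Counts over the tested genes therefore carry no weight for it, and its adjusted p values against LBT are given as description. S1PR4 reached the minimum in 2 dogs and SPHK1 in 0, and neither entered the tests.

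**Figure D1:**
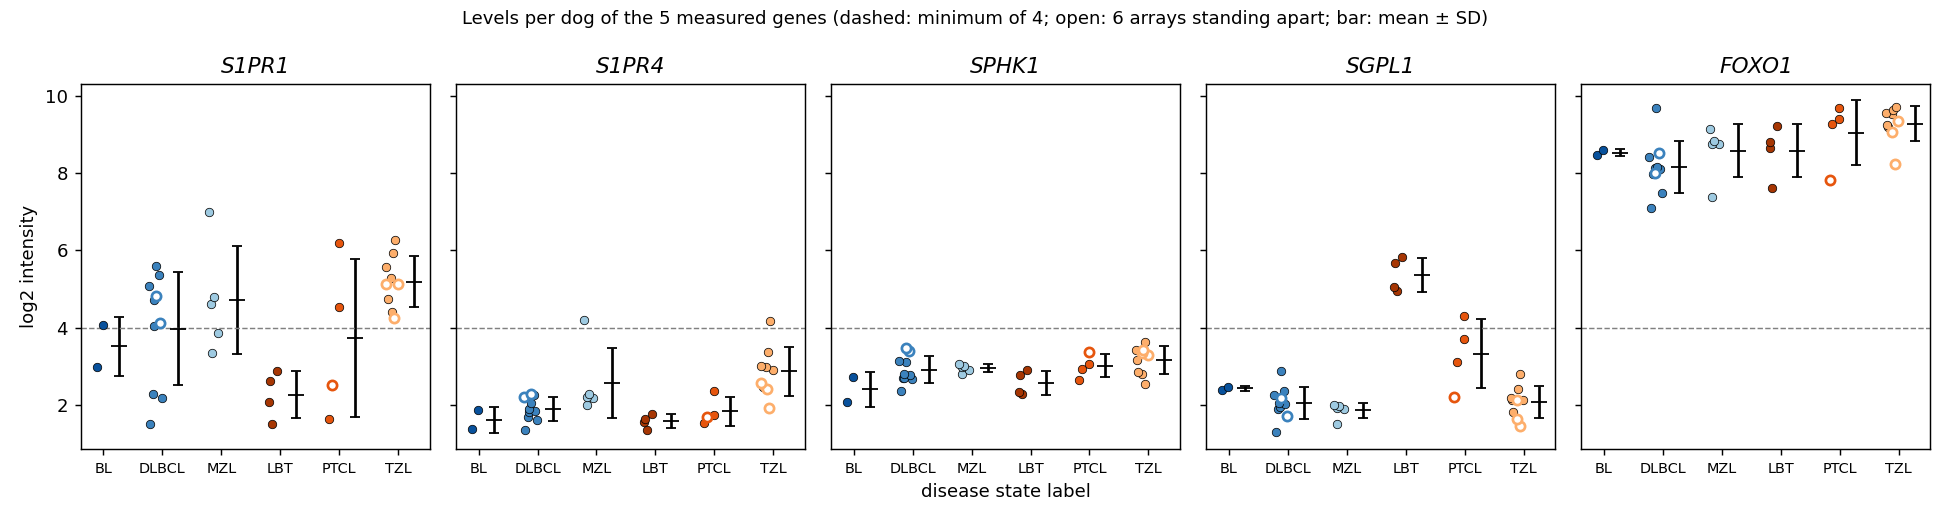
Log2 intensity (y axis) of each of the 5 genes in every B and T dog, by disease state label (x axis), with mean ± SD beside the dogs, the minimum of 4 dashed and the 6 arrays standing apart as open points. All 4 LBT dogs lie below the minimum for S1PR1 and above it for SGPL1, while all 9 TZL dogs show the opposite.

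S1PR1, the receptor that lymphocytes need in order to leave the node, was measured by 1 probe set (gene ID 490138). Its log2 level was 1.51, 2.07, 2.61 and 2.88 in the 4 LBT dogs, against a lowest of 4.25, a median of 5.13 and a highest of 6.26 in the 9 TZL dogs. Every LBT dog lay below the minimum and every TZL dog above it, and the groups did not overlap. The LBT mean was 2.27 ± 0.61 (SD, n = 4) and the TZL mean 5.19 ± 0.66 (SD, n = 9). The log2 difference, LBT minus TZL, was -2.92 (SE 0.73, adjusted p = 0.00285 by limma with Benjamini-Hochberg adjustment over 7500 genes). Since LBT has only a bound, S1PR1 was at least 2.28-fold lower in LBT than in TZL. In this comparison 30.1% of the tested genes were called, meaning an adjusted p under 0.05, and 12.4% were called lower. The log2 difference was -3.10 without the 6 arrays (adjusted p = 0.00705) and -3.02 with the set as a block (adjusted p = 0.00313).

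The other labels filled the space between these groups. In PTCL the log2 levels of S1PR1 were 1.64, 2.51, 4.54 and 6.19, so that 2 dogs lay in the range of LBT and 2 in that of TZL. In MZL they were 3.34, 3.85, 4.62, 4.80 and 6.99, the last being the highest of all dogs. DLBCL ran from 1.51 through a median of 4.41 to 5.59, with 7 of 10 dogs at the minimum. The 2 BL dogs stood at 2.98 and 4.06. This is a spread of over 4 log2 units within both DLBCL and PTCL, wider than the distance between any pair of label means.

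By mean the order was TZL 5.19 ± 0.66 (SD, n = 9), MZL 4.72 ± 1.40 (n = 5), DLBCL 3.97 ± 1.46 (n = 10), PTCL 3.72 ± 2.05 (n = 4), BL 3.52 ± 0.76 (n = 2) and LBT 2.27 ± 0.61 (n = 4) on the log2 scale. Not 1 pair of neighbours in this order was called, with adjusted p between 0.475 and 0.933. Of all 15 pairs of labels 2 were called, LBT against TZL and MZL against LBT. For the second of these the log2 difference, MZL minus LBT, was 2.45 (SE 0.81, adjusted p = 0.0228), in a comparison that called 28.7% of genes. Set against the minimum, the MZL mean was 1.65-fold higher. This is not a firm bound, because 2 of the 5 MZL dogs were themselves below the minimum. All 5 MZL dogs lay above all 4 LBT dogs, but for those 2 the order lies in the range where the array does not measure.

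No difference of S1PR1 was detected by lineage. The B mean was 4.14 ± 1.38 and the T mean 4.15 ± 1.62 on the log2 scale (SD, n = 17 each), and 11 of 17 dogs of each phenotype reached the minimum. The log2 difference, B minus T, was -0.02 with a 95% interval from -1.03 to 0.99 (adjusted p = 0.982), so that a difference of up to about 1 log2 unit either way is within the interval. Among the low-grade labels the log2 difference, MZL minus TZL, was -0.47 (interval -1.85 to 0.91, adjusted p = 0.646). Between the large-cell and marginal zone B tumours it was -0.75, DLBCL minus MZL (interval -2.11 to 0.60, adjusted p = 0.689). PTCL minus TZL gave -1.47 (interval -2.95 to 0.02, adjusted p = 0.191). This last value depended on a single dog, because without PTCL replicate 1, the dog at 6.19, the log2 difference was -2.29 (adjusted p = 0.0382).

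S1PR4 (gene ID 612082), a receptor of the same family found mainly on blood and lymphoid cells, was near the bottom of the array's range. Its log2 level reached the minimum in MZL replicate 3, at 4.19, and in TZL replicate 8, at 4.16. All other dogs were below it, at 1.34 to 1.78 in LBT, 1.54 to 2.37 in PTCL, 1.38 and 1.86 in BL, 1.35 to 2.28 in DLBCL, from 1.99 in MZL and from 1.93 in TZL. When dim genes were kept, with 15115 genes tested, the log2 difference was -1.29 for LBT minus TZL (adjusted p = 0.00410) and -1.04 for PTCL minus TZL (adjusted p = 0.0433). In TZL 8 of 9 dogs were below the minimum, and no fold is given.

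SPHK1 (gene ID 483329), the kinase that phosphorylates sphingosine to S1P, was below the minimum in every dog. Its log2 level ran from 2.07 in a BL dog to 3.63 in a TZL dog, with label means between 2.40 in BL and 3.16 in TZL. These levels have no reliable order. Without the filter the log2 difference was -0.59 for LBT minus TZL (adjusted p = 0.0338), between 2 groups that were both below the minimum in every dog.

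SGPL1 (gene ID 489032), the lyase that degrades S1P in the endoplasmic reticulum, had the clearest pattern by label. The log2 level of its brighter probe set was 4.94, 5.05, 5.66 and 5.83 in the LBT dogs. It was 2.19, 3.11, 3.70 and 4.30 in the PTCL dogs, of which only the last reached the minimum. No dog of any other label reached the minimum. The lowest, median and highest log2 levels were 1.46, 2.12 and 2.81 in TZL and 1.31, 2.03 and 2.88 in DLBCL. MZL ran from 1.52 to 2.00, and the 2 BL dogs stood at 2.38 and 2.47. The LBT dogs lay above every other dog, and no label overlapped with them.

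The LBT mean was 5.37 ± 0.44 (SD, n = 4) against 2.08 ± 0.40 (SD, n = 9) in TZL, a log2 difference of 3.29 (SE 0.28, adjusted p = 5.46e-10). With no filter, over 15115 genes, the adjusted p by limma was 8.45e-10. As TZL has only a bound, SGPL1 was at least 2.58-fold higher in LBT. In that comparison 17.8% of genes were called higher. Against PTCL, at 3.32 ± 0.90 (SD, n = 4), the log2 difference, LBT minus PTCL, was 2.04 (SE 0.33, adjusted p = 0.00126), and the fold was 2.45 when lower values were raised to the minimum. Only 0.680% of genes, 51 of 7500, were called between LBT and PTCL, 0.467% as higher and 0.213% as lower, and SGPL1 was 1 of these. Since SGPL1 passed the filter through the LBT dogs, nothing is read from that share. The call was lost with sex, breed and age as covariates, at a log2 difference of 1.70 (adjusted p = 0.119). Breed entered only as Golden Retriever or not, so the other breeds were not told apart. The call was also lost in a fit of those 8 dogs alone, where the difference stayed at 2.04 (adjusted p = 0.371). Without the 6 arrays the difference was 1.67 and called (adjusted p = 0.00583).

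PTCL exceeded TZL by 1.25 on the log2 scale (SE 0.28, adjusted p = 0.00276), where 13.7% of genes were called with 7.60% higher and 6.07% lower. Of these 13 dogs 12 were below the minimum. When lower values were raised to the minimum, the log2 difference was 0.07 (adjusted p = 0.761), so this difference lies in the range where the array does not measure. Without the 6 arrays it was 1.46 (adjusted p = 0.00236). B dogs were all below the minimum and averaged 2.04 ± 0.37, against 3.14 ± 1.47 in T dogs (SD, n = 17 each), of which 12 of 17 were below it. The log2 difference, B minus T, was -1.10 (SE 0.36, adjusted p = 0.0115). The call was lost when lower values were raised to the minimum, at -0.34 (adjusted p = 0.0685), and with array weights, at -0.64 (adjusted p = 0.0506). It was lost as well without the 4 LBT dogs, at -0.42 (adjusted p = 0.116), an alternative chosen after seeing the data. Without the 6 arrays the log2 difference was -1.49 (adjusted p = 0.00221).

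The other SGPL1 probe set gave the same order at the top. Its log2 level averaged 4.25 ± 0.67 in LBT (SD, n = 4, range 3.66 to 5.17, 2 dogs at the minimum) and 2.36 ± 0.57 in PTCL, and 1.43 to 1.64 in the means of the remaining labels. Its log2 difference was 2.65 for LBT minus TZL (adjusted p = 1.13e-10) and 1.88 for LBT minus PTCL (adjusted p = 2.26e-05). For the brighter probe set LBT minus TZL was 3.13 without the 6 arrays standing apart (adjusted p = 7.17e-09) and 3.11 with them as a block. Over all 15 pairs of labels SGPL1 was called in 8, which were the 5 pairs that hold LBT and the pairs of PTCL with TZL, DLBCL and MZL. Since SGPL1 passed the filter through the LBT dogs, this count is given as description only. DLBCL minus LBT gave a log2 difference of -3.31 (adjusted p = 1.96e-10, 33.7% of genes called), BL minus LBT -2.94 (adjusted p = 8.91e-06, 13.8% called) and MZL minus LBT -3.51 (adjusted p = 1.97e-09). As no DLBCL, BL or MZL dog reached the minimum, these are bounds, and SGPL1 was at least 2.58-fold lower in each of those labels than in LBT. DLBCL minus PTCL gave -1.27 (adjusted p = 0.00135, 20.9% called) and MZL minus PTCL -1.47 (adjusted p = 0.00195, 15.5% called), and in each of these only 1 dog reached the minimum. Both differences therefore lie largely in the range where the array does not measure. The pairs of BL with PTCL, TZL and MZL called 6.29%, 25.3% and 0.173% of genes and none of the 3 tested here.

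**Figure D2:**
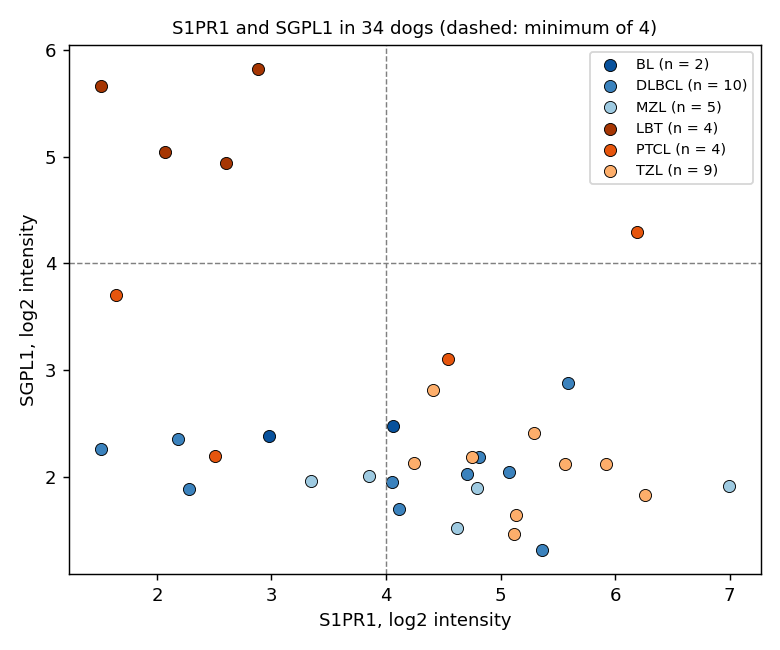
Log2 intensity of S1PR1 (x axis) and SGPL1 (y axis) in each of the 34 B and T dogs, coloured by label, with the minimum of 4 dashed on both axes. The 4 LBT dogs alone share a low S1PR1 and a high SGPL1, and PTCL replicate 1 is the only dog above both minima.

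In LBT, then, the receptor was low and the lyase high in all 4 dogs, and in TZL the reverse held in all 9. PTCL was mixed. PTCL replicate 1 reached the minimum for both genes, at log2 levels of 6.19 for S1PR1 and 4.30 for SGPL1. PTCL replicate 2 was low for S1PR1 at 1.64 and next in SGPL1 at 3.70.

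Markers of other cells and of cell division were measured beside these differences. The summed intensity of 10 blood endothelium genes, cells that are rich in S1PR1, was 71.5 to 306 in LBT, 187.5 to 925 in PTCL and 67.6 to 328 in TZL, and CDH5, VWF, TEK, CLDN5, TIE1 and ESAM were below the minimum in every LBT and TZL dog. The ranges of these sums overlapped almost wholly between LBT and TZL. In TZL, however, KDR and ENG were below the minimum in every dog as well, which leaves PECAM1 and EGFL7. Their mean log2 levels there were 6.69 and 3.68, so the overlap rests largely on PECAM1. ENG, an endothelial coreceptor, averaged a log2 level of 5.01 in LBT and 2.60 in TZL, where it was below the minimum in every dog, and was called higher in LBT (adjusted p = 0.00484). KDR, an endothelial growth factor receptor, was called higher in PTCL than in TZL by a log2 difference of 2.39 (adjusted p = 0.00872). Of 5 lymphatic endothelium genes LYVE1, PROX1, PDPN and FLT4 were below the minimum in every dog of both, while the chemokine CCL21 averaged 3.01 in LBT and 8.64 in TZL on the log2 scale. The sum of this list was 26.9 to 32.1 in LBT and 66.0 to 2962 in TZL, and the part of CCL21-producing cells in the S1PR1 difference was not tested.

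The summed intensity of 7 B cell genes was 42.0 to 1956 in LBT and 349 to 3182 in TZL, with BLK and PAX5 below the minimum in every LBT dog and PAX5 in every TZL dog. CD79A, CD79B and CD22 were called lower in LBT. The sum of 10 macrophage genes was 1626 to 4465 in LBT and 262 to 10363 in TZL, with CD68, CD163, MARCO and ITGAM below the minimum in every LBT dog. CD14, a monocyte gene, was called higher in LBT than in TZL by a log2 difference of 1.56 (adjusted p = 0.00147) and MARCO lower by -1.41 (adjusted p = 0.0222). Between PTCL and TZL CD14 and CD68 were called higher, 2 of the 9 macrophage genes tested, with sums of 5735 to 10143 in PTCL. The sum of 7 stroma genes was 35.8 to 87.4 in LBT and 44.3 to 777 in TZL, and that of 3 red cell and platelet genes 13.4 to 15.1 in LBT and 14.4 to 19.5 in TZL. The sum of 7 cell division genes was 12190 to 15126 in LBT and 2527 to 5462 in TZL, with all 7 called higher, and 8814 to 15440 in PTCL. Their part in the S1PR1 and SGPL1 differences was not tested. The log2 distance between the 3' and 5' actin controls, a sign of RNA quality, was 3.41 to 7.06 in LBT and 2.89 to 11.0 in TZL. With the 3' to 5' distances of actin and GAPDH as covariates the log2 difference, LBT minus TZL, was -3.05 for S1PR1 (adjusted p = 0.00214) and 3.15 for SGPL1 (adjusted p = 6.42e-10).

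FOXO1 (gene ID 477295), the transcription factor upstream of KLF2, was well above the minimum everywhere by its brightest probe set. It was lower in B than in T when the labels of each lineage were pooled. DLBCL made up 10 of the 17 B dogs and TZL 9 of the 17 T dogs. Of 15 pairs of labels, DLBCL with TZL was the only one called. MZL of the B and LBT of the T phenotype both averaged 8.58. The difference is therefore shown for the pooled dogs and for that pair, and not for each pair of B and T labels. The log2 level of the brightest FOXO1 probe set had a lowest, median and highest value of 7.10, 8.42 and 9.69 in the B dogs. In the T dogs these values were 7.62, 9.26 and 9.71. The groups overlapped, but 16 of 17 B dogs lay below the T median, the exception being DLBCL replicate 3. B dogs averaged 8.33 ± 0.65, against 9.06 ± 0.64 for T dogs (SD, n = 17 each). FOXO1 fell by 0.73 on the log2 scale in B against T (SE 0.22, adjusted p = 0.00625), which is 1.66-fold lower. Of the 3 genes tested, FOXO1 and SGPL1 were called lower in B, in a comparison that called 46.5% of all genes, 24.2% as higher and 22.3% as lower, so that a call of 2 of 3 says little beside that background. The call of FOXO1 was lost, at a log2 difference of -0.55 (adjusted p = 0.0739), when each label was given equal weight. It was also lost with averaged probe sets, at -0.66 (adjusted p = 0.108). Blood endothelium genes summed to 72.2 to 1222 in B and 67.6 to 925 in T, macrophage genes to 2423 to 9032 in B and 262 to 10363 in T, and cell division genes to 4692 to 13240 in B and 2527 to 15440 in T, with 0 of 7 called. ENG was called lower in B by a log2 difference of -1.61 (adjusted p = 0.00267) and CCL21 by -3.39 (adjusted p = 0.000311), and the macrophage gene C1QA was called higher by 1.99 (adjusted p = 0.0144). The ENG means, 1.99 in B and 3.60 in T, both lie below the minimum, as does the CCL21 mean of 3.07 in B. The part of these cells in the FOXO1 difference was not tested. The median log2 distance between the 3' and 5' actin controls was 7.31 in BL, 7.34 in DLBCL and 5.16 in MZL, against 4.73 in LBT, 6.26 in PTCL and 4.89 in TZL. With the 3' to 5' distances of actin and GAPDH as covariates the log2 difference of FOXO1, B minus T, was -0.77 (adjusted p = 0.0202).

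By label, FOXO1 had log2 levels of 8.47 and 8.60 in BL and 7.10, 8.12 and 9.69 (lowest, median and highest) in DLBCL. In MZL they were 7.38, 8.75, 8.76, 8.84 and 9.15, and in LBT 7.62, 8.64, 8.82 and 9.23. PTCL had 7.82, 9.27, 9.40 and 9.70, of which the first is on an array of the set that stands apart. TZL had 8.23, 9.36 and 9.71 (lowest, median and highest). By this brightest probe set TZL was highest by mean at 9.28 ± 0.45 (SD, n = 9) and DLBCL lowest at 8.16 ± 0.68 (n = 10). The mean was 9.05 ± 0.84 in PTCL (n = 4), 8.58 ± 0.69 in both MZL (n = 5) and LBT (n = 4), and 8.53 ± 0.09 in BL (n = 2).

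The pair at the ends of this order was the only 1 of 15 that was called. DLBCL minus TZL gave a log2 difference of -1.12 (SE 0.29, adjusted p = 0.00179), in a comparison that called 46.9% of genes, and 9 of 10 DLBCL dogs lay below the TZL median. Without the 6 arrays it was -1.34 (adjusted p = 0.00121) and with the set as a block -1.19 (adjusted p = 0.000778), both chosen after seeing the data. Neighbours in the order were not called, with adjusted p from 0.474 to 0.998. LBT minus TZL was -0.70 (interval -1.46 to 0.06, adjusted p = 0.153) and MZL minus TZL -0.70 (interval -1.41 to 0.00, adjusted p = 0.130) on the log2 scale. PTCL minus TZL was -0.23 (interval -0.99 to 0.53, adjusted p = 0.751).

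**Figure D3:**
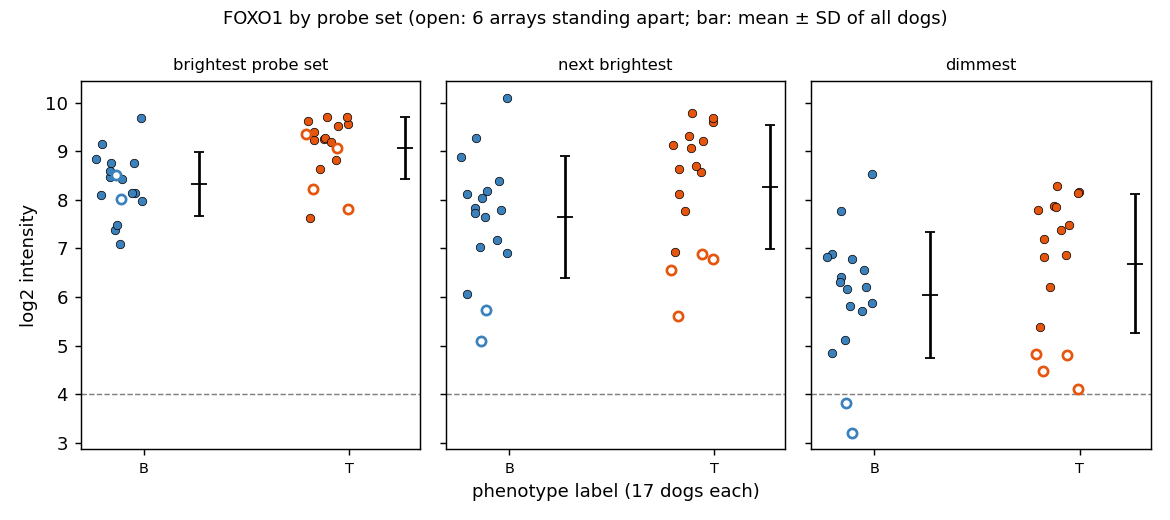
Log2 intensity (y axis) of FOXO1 by probe set (panels) in the 17 B and 17 T dogs (x axis), with mean ± SD and the minimum of 4 dashed. Open points are the 6 arrays standing apart, which are the lowest of each phenotype for both dimmer probe sets and lie among the others for the brightest.

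The other FOXO1 probe sets gave a like difference that was not called on all arrays. The log2 difference, B minus T, was -0.61 for the next brightest (adjusted p = 0.238) and -0.64 for the dimmest (adjusted p = 0.252). Both were far lower on the 6 arrays standing apart than on the others of the same labels, by log2 differences of -2.58 (adjusted p = 7.68e-06) and -3.04 (adjusted p = 1.87e-07). For the brightest probe set that difference was -0.51 (adjusted p = 0.220). The order of labels was not the same on all arrays. The next brightest probe set averaged 8.44 in PTCL, 8.34 in MZL, 8.30 in TZL and 7.27 in DLBCL. The dimmest averaged 6.77 in both TZL and PTCL, 6.63 in MZL and 5.70 in DLBCL. DLBCL was the lowest label for each probe set, but DLBCL against TZL was not tested with the dimmer probe sets. Across the 34 dogs the dimmer probe sets followed each other at a Pearson r of 0.966 and the brightest at 0.638 and 0.668, with all points sharing the same arrays.

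Without the 6 arrays, B minus T came to -0.86 (adjusted p = 0.0389) for the next brightest probe set and -0.96 (adjusted p = 0.0195) for the dimmest on the log2 scale, an alternative chosen after seeing the data. With the set as a block the log2 differences were -0.89 (adjusted p = 0.0120) and -0.97 (adjusted p = 0.00499). For the brightest probe set they were -0.86 without these arrays (adjusted p = 0.00454) and -0.78 with the block (adjusted p = 0.00366). All 3 probe sets were thus called lower in B when the set was left out or blocked.

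Between BL and DLBCL, and between DLBCL and MZL, not 1 of the 3 tested genes was called. By limma 0.0267% of genes were called between BL and DLBCL, 0.0133% as higher and 0.0133% as lower, and 426 had an unadjusted p under 0.05. Between DLBCL and MZL 0% were called and 977 had an unadjusted p under 0.05. The log2 difference of FOXO1 was 0.37 for BL minus DLBCL (interval -0.61 to 1.35, adjusted p = 0.960) and -0.42 for DLBCL minus MZL (interval -1.11 to 0.27, adjusted p = 0.652). MZL minus TZL called 27.5% of genes, 15.2% as higher and 12.3% as lower, and none of the 3. The step from low to high grade was set between the lineages, as PTCL minus TZL less DLBCL minus MZL, where 1.96% of genes were called, 1.21% as higher and 0.747% as lower, and none of the 3. The log2 difference of the steps was -0.72 for S1PR1 (adjusted p = 0.803), 1.05 for SGPL1 (SE 0.38, adjusted p = 0.171) and 0.19 for FOXO1 (adjusted p = 0.920). Without PTCL replicate 3, which is on an array standing apart, the SGPL1 value was 1.42 (adjusted p = 0.0382).

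The 5 genes were also set against each other within the 2 labels that hold enough dogs. There were 20 pairs of genes, 10 in DLBCL (n = 10) and 10 in TZL (n = 9). Of these, 0 passed a permutation test with 1e+05 resamples after adjustment over the 20. SGPL1 and SPHK1 reached the minimum in 0 dogs of these labels, and S1PR4 in 0 DLBCL dogs and 1 TZL dog. Only S1PR1 with FOXO1 was therefore measured on both sides, and the count cannot speak for the other pairs. S1PR1 and FOXO1 had a Pearson r of 0.491 (permutation p = 0.156, adjusted p = 0.821) and a Spearman coefficient of 0.273 (p = 0.449, adjusted p = 0.794) in DLBCL. In TZL they had an r of 0.386 (permutation p = 0.318, adjusted p = 0.821) and a Spearman coefficient of 0.167 (p = 0.675, adjusted p = 0.794). Without the 2 dogs farthest from the S1PR1 median r was 0.521 in DLBCL and -0.507 in TZL. The lowest p was that of S1PR1 with S1PR4 in TZL, at a Spearman coefficient of 0.733 (permutation p = 0.0326, adjusted p = 0.652) and an r of 0.566 (p = 0.110, adjusted p = 0.821), for a gene that was measured in 1 of the 9 dogs. Leaving out the 2 dogs farthest from the S1PR1 median gave an r of 0.463 there.

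Of 19 other genes of the S1P route 16 had a probe set and 10 were tested, while the receptors S1PR2, S1PR3 and S1PR5, the transporter SPNS2 and the ceramidases ACER1 and ACER2 were too dim. Between B and T, 3 of the 10 were called higher and 2 lower, with a median log2 difference of -0.08 against 0.03 over all genes. This is 50% of the list, close to the 46.5% of all genes called in that comparison. PLPP3, a cell surface phosphatase that removes the phosphate from S1P and related lipids, was higher in B by a log2 difference of 5.07 (SE 0.45, adjusted p = 7.18e-11). Its log2 level averaged 10.52 in BL, 8.67 in DLBCL and 9.77 in MZL, against 3.31 in LBT, 4.27 in PTCL and 4.45 in TZL. SPHK2, the other sphingosine kinase, averaged a log2 level of 5.15 in B and 4.25 in T (difference 0.89, adjusted p = 5.26e-05). SGPP1, an S1P phosphatase of the endoplasmic reticulum, was higher in B by 0.68, while PLPP1, a relative of PLPP3, fell by 0.68 in B and CIB1, which carries SPHK1 to the plasma membrane, fell by 0.27 on the log2 scale.

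Between LBT and TZL, 2 of the same 10 genes were called higher and 2 lower, with a median log2 difference of -0.29 against 0.05 over all genes. The 40% of the list compares with 30.1% of all genes. HDAC2, a histone deacetylase that binds nuclear S1P, averaged a log2 level of 11.15 in LBT and 10.01 in TZL (difference 1.14, SE 0.16, adjusted p = 4.56e-06). APOM, a carrier of S1P in plasma, averaged 4.85 in LBT and 3.54 in TZL, where it was below the minimum in every dog. PLPP1 averaged 6.41 in LBT and 7.82 in TZL, and ASAH1, the acid ceramidase that frees sphingosine, 7.11 in LBT and 8.47 in TZL. Between PTCL and TZL HDAC2 alone of the 10 was called, at a log2 difference of 0.85 (adjusted p = 0.000497). Between MZL and TZL 4 of the 10 were called higher, among them PLPP3 by a log2 difference of 5.32 (adjusted p = 1.70e-06) and SPHK2 by 1.41 (adjusted p = 0.000117), and 1 lower, which is 50% of the list against 27.5% of all genes.

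**Figure D4:**
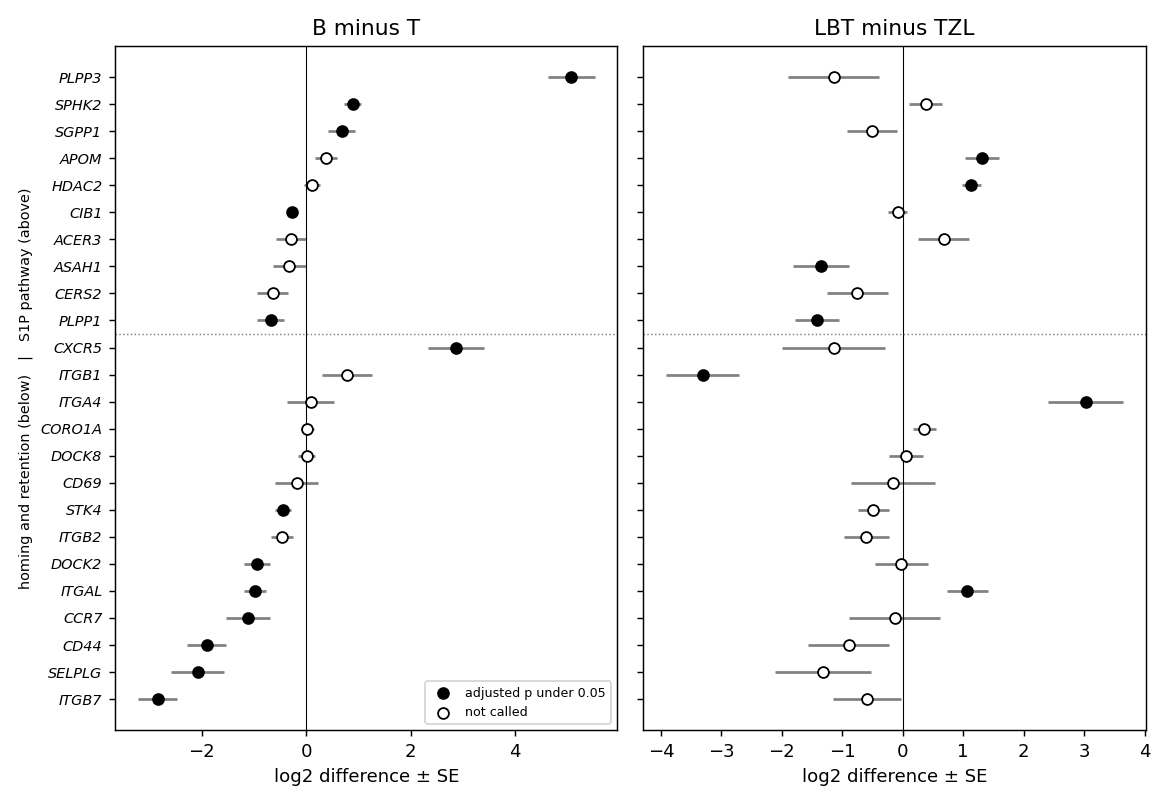
Log2 differences ± SE (x axis) for B minus T (left) and LBT minus TZL (right) of the tested genes of the S1P route (above the dotted line) and of node homing and retention (below it), filled where the adjusted p was under 0.05. PLPP3 stands highest for B minus T at 5.07, and ITGB1 and ITGA4 lie at opposite ends for LBT minus TZL.

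Of 17 genes that guide lymphocytes into lymph nodes or hold them there, 14 were tested. Between B and T, 1 was called higher and 7 lower (median log2 difference -0.45), or 57.1% of the list against 46.5% of all genes. CXCR5, the receptor that leads cells into follicles, averaged a log2 level of 6.17 in B and 3.30 in T, the latter below the minimum. ITGB7, the partner chain of the gut homing integrin, averaged 8.88 in B and 11.73 in T, and CD44, a hyaluronan receptor, 6.82 in B and 8.72 in T. Between LBT and TZL 2 were called higher and 1 lower, or 21.4% against 30.1% of all genes. The integrin chain ITGA4 averaged 9.55 in LBT and 6.52 in TZL (difference 3.03, SE 0.62, adjusted p = 0.000401), while its partner ITGB1 averaged 4.93 in LBT and 8.23 in TZL (difference -3.31, SE 0.61, adjusted p = 0.000119). ITGAL, the alpha chain of LFA-1, averaged 4.42 in LBT and 3.35 in TZL, the latter below the minimum. Between PTCL and TZL ITGB1 was the only call, with a log2 difference of -1.96 (adjusted p = 0.0280). Between MZL and TZL 1 was called higher, CXCR5 by 4.20 on the log2 scale, and 3 lower, or 28.6% of the list against 27.5% of all genes.

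Of 18 genes that carry or end the signal of S1P receptors 12 were tested. Between LBT and TZL 0 were called higher and 4 lower, with a median log2 difference of -0.30. That is 33.3% of the list, near the 30.1% of all genes. GRK2, the kinase that marks S1PR1 for uptake from the surface, averaged a log2 level of 6.26 in LBT and 8.32 in TZL (difference -2.06, SE 0.36, adjusted p = 6.83e-05). ARHGEF1, a guanine nucleotide exchange factor, averaged 8.35 in LBT and 9.58 in TZL. RAC2, a GTPase of blood cells, and RGS1, which shortens G protein signals, were also called lower in LBT, by log2 differences of -0.55 and -1.75. GRK2 and ARHGEF1 were the 2 calls between PTCL and TZL as well, with log2 differences of -1.66 (adjusted p = 0.00205) and -1.22 (adjusted p = 0.0138). PTCL and LBT were set against the same TZL dogs. Between B and T 4 were called, all lower in B, the arrestin ARRB2 by a log2 difference of -1.71, the G protein chains GNAI3 and GNAI2 by -0.45 and -0.39, and ARHGEF1 by -0.64, which at 33.3% of the list is below the 46.5% of all genes. Between MZL and TZL ARRB2 and GNAI3 were called lower, by -1.89 and -0.38.

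Of 24 genes that act with FOXO1 or control it, 16 were tested. Between B and T 2 were called higher and 4 lower (median log2 difference -0.40), or 37.5% of the list, below the 46.5% of all genes. PIK3R1 and PIK3CD, the regulatory and catalytic subunits of PI3K, averaged log2 levels of 7.97 and 7.22 in B and 9.27 and 8.84 in T. FOXO3, the other FOXO factor tested, averaged 4.73 in B and 3.68 in T (difference 1.06, SE 0.17, adjusted p = 3.82e-06), the direction opposite to FOXO1. Its T mean lies below the minimum, so the size of this difference is not measured. Between LBT and TZL 1 was called higher, PDPK1, a kinase that activates AKT, by a log2 difference of 1.16, and 3 lower, or 25% against 30.1% of all genes. KLF6 and KLF3, factors of the same family as KLF2, fell by 2.36 and 1.53. FOXO3 fell by 0.90, from a TZL mean of 3.99 that is itself under the minimum. KLF3 was the 1 call between PTCL and TZL, with a log2 difference of -1.84 (adjusted p = 0.00870). Between MZL and TZL PIK3R1 was called lower by -1.64 and FOXO3 higher by 0.76.

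Genes known in mouse or human lymphocytes as targets of FOXO1 or KLF2 were read as a list of 20, of which 12 were tested. S1PR1, itself such a target, was left out of it. Between B and T 2 were called higher and 9 lower, with a median log2 difference of -1.15 against 0.03 over all genes, and the share called was 91.7% against 46.5% of all genes. IL7R, the interleukin 7 receptor, averaged a log2 level of 5.03 in B and 10.11 in T (difference -5.08, SE 0.42, adjusted p = 1.50e-11). TCF7, a T cell transcription factor, averaged 2.29 in B and 6.27 in T, and PIK3IP1, an inhibitor of PI3K, 3.57 in B and 6.23 in T. The B means of TCF7 and PIK3IP1 lie below the minimum. SESN1, a stress response gene, averaged 10.78 in B and 8.36 in T. IL7R and TCF7 are also general genes of T cells. Between LBT and TZL 3 were called higher and 7 lower (median -1.20), or 83.3% against 30.1% of all genes, with SESN1 at a log2 level of 6.93 in LBT and 9.08 in TZL, the cell cycle inhibitor CDKN1A at 5.75 in LBT and 8.14 in TZL, and TXNIP, which restrains glucose uptake, at 10.44 in LBT and 11.37 in TZL. SESN3 averaged 4.44 in LBT and 3.15 in TZL. Between PTCL and TZL KLF3 was the only call, and between MZL and TZL 2 were called higher and 4 lower, or 50% against 27.5% of all genes.

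The wider sphingolipid route had 14 of 22 genes tested. Between B and T 2 were called higher and 5 lower, or 50% of the list, close to the 46.5% of all genes. SMPD1, the acid sphingomyelinase, averaged a log2 level of 4.10 in B and 5.79 in T, and the ceramide synthase CERS5 6.30 in B and 7.77 in T. ALDH3A2, which oxidises the aldehyde that S1P lyase releases, averaged 8.23 in B and 7.42 in T. Between LBT and TZL 1 was called higher and 4 lower, or 35.7% against 30.1% of all genes. CERS6, another ceramide synthase, averaged 7.22 in LBT and 5.07 in TZL (difference 2.15, SE 0.54, adjusted p = 0.00307), and ORMDL2, which restrains sphingolipid synthesis, 7.20 in LBT and 8.09 in TZL. UGCG, which turns ceramide into glucosylceramide, and DEGS1, which makes ceramide, were lower in LBT by log2 differences of -1.13 and -0.64. CERS6 was also the only call between PTCL and TZL, at 1.60 (adjusted p = 0.0464). Between MZL and TZL 2 were called higher and 5 lower, or 50% against 27.5% of all genes. In all 6 lists, 0 genes were called between LBT and PTCL, between DLBCL and MZL or between BL and DLBCL. Between the grade steps HDAC2 was called higher and KLF3 lower.

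The genes whose levels followed those of S1PR1, SGPL1 and FOXO1 most closely were taken from 7499 others by Pearson r over the 34 dogs, as a description. All points share the arrays and their labels. For S1PR1 they were CASP10, a caspase of the death receptor route (r = 0.751), BCL2A1, a BCL2 relative that protects from cell death (r = 0.706), and ALG13, a glycosylation gene (r = 0.697). BCL2A1 averaged a log2 level of 9.47 ± 0.86 in LBT (SD, n = 4) and 11.81 ± 0.37 in TZL (SD, n = 9). For SGPL1 they were the adaptor DOK4 (r = 0.907), the matrix protein SMOC2 (r = 0.906) and the actin-binding DBN1 (r = 0.876). SMOC2 averaged 11.01 ± 0.64 in LBT and 6.85 ± 3.48 in PTCL (SD, n = 4 each), and 2.30 ± 0.21 in TZL (SD, n = 9). DOK4 averaged 6.50 ± 0.27 in LBT, with 4 of 4 dogs at the minimum, and 3.63 ± 0.77 in PTCL, with 2 of 4, and no dog of the other labels reached the minimum. For FOXO1 they were CREBRF, a regulator of the CREB3 factors (r = 0.795), the zinc finger gene ZNF394 (r = 0.782) and GNA11, a G protein chain (r = 0.761).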

How the data were processed

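The authors deposited linear intensities for each array, summarised per probe set and normalized with GCRMA, per the submitters' processing notes (version not given in the sources used here). They were floored at 1 and converted to log2. Of 43035 probe sets, 29254 were paired with exactly 1 symbol in the platform annotation, and the one with the highest mean stood for each of 15115 genes. The 2 arrays of the repeated DLBCL case (r = 0.990 over the genes tested) were averaged, and the single NBNT case entered no fit. The 7500 genes that reached log2 4 in 4 or more of 34 dogs were tested with lmFit and eBayes (limma 3.58.1, R 4.3.3), two-sided, with Benjamini-Hochberg adjustment over all of them. B against T was fitted with 2 means, and the labels with 6. The steps were checked on simulated data. The 6 genes and all lists were chosen with earlier results of these data known. Besides the 6, up to 4 genes with the smallest p were named from each list with calls in a comparison, and SGPP1, CCL21 and the other marker genes beyond that rule were named after their values were seen. The fold is a bound, set against the minimum, for groups with no dog at it. Correlations used 1e+05 permutations. The alternatives tried are given in the closing section. No sequences were used here.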

Additional observations from a re-analysis of the deposited data

Results flagged for a closer look

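Within labels of 4 to 10 dogs, 25 sets of values were looked at for a dog whose gap to its nearest neighbour was large for the range of the set, and 4 met that criterion, where chance alone gives about 1 in 20. S1PR4 in MZL replicate 3 had a log2 level of 4.19, above the other 4 MZL dogs, of which the highest was 2.29. SGPL1 in MZL replicate 1 had a log2 level of 1.52, below the others at 1.90 to 2.00, all of them under the minimum. FOXO1 in MZL replicate 2 had a log2 level of 7.38 against 8.75 to 9.15 in the others, and the same dog had the highest S1PR1 of all, at 6.99. FOXO1 in TZL replicate 1 had a log2 level of 8.23 against 9.07 to 9.71 in the others, and this dog is on an array of the set that stands apart.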

How the results depend on the processing

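No paired analysis was possible because the replicate numbers were given in accession order and each dog has 1 label. The differences of S1PR1, SGPL1 and FOXO1 were computed 357 times under other settings, of which 345 kept their side of the threshold, 10 lost the call and 2 gained it. Of those called in either fit 0 changed sign, but some uncalled ones did. For S1PR1 in B minus T the alternatives ran from -0.58 to 0.42 on the log2 scale. Without 1 dog 409 of 411 kept their side of the threshold and 2 gained the call. Here too uncalled differences could change sign, with S1PR1 in B minus T from -0.20 to 0.15. Of the 6 genes 3 were tested in most fits, 5 with no filter and 1 with the filter at log2 6. In the main fits 46.5% of all genes were called for B minus T, 13.7% for PTCL minus TZL and 30.1% for LBT minus TZL. The share was 0.680% for LBT minus PTCL, 27.5% for MZL minus TZL and 1.96% for the grade steps. The number of these genes called was 2 for B minus T, and 2 without any 1 dog. It was 1 there with a filter at log2 6, array weights, averaged probe sets, low values raised to the minimum, or equal weight per label. It was 1 for PTCL minus TZL, 2 with no filter, 0 with the filter at log2 6, with low values raised to the minimum or in a fit of those labels only, and 1 to 2 without a dog. It was 2 for LBT minus TZL, 4 with no filter and 0 with the filter at log2 6, under which neither S1PR1 nor SGPL1 is tested. The 4 include S1PR4, with 1 TZL dog at the minimum, and SPHK1, which was below it in every dog. The number was 1 for LBT minus PTCL and 0 with the filter at log2 6, with sex, breed (Golden Retriever or not) and age as covariates or with those labels only. Array weights gave 1 in place of 0 for MZL minus TZL (FOXO1, -0.76, adjusted p = 0.0148) and for the grade steps (SGPL1, 1.39, adjusted p = 0.0298), and the grade steps gave 0 to 1 without a dog. With array weights SGPL1 in B minus T was -0.64 (adjusted p = 0.0506), with averaged probe sets FOXO1 was -0.66 (adjusted p = 0.108), and with low values raised to the minimum SGPL1 was -0.34 (adjusted p = 0.0685), all on the log2 scale. The filter and the fits of fewer dogs change what is tested, and for the other settings the cause was not tested. Counts over all genes moved more than 1.5 times for DLBCL minus MZL (0, and up to 378), LBT minus PTCL (51, and 0 to 96, or 11 to 173 without a dog), BL minus DLBCL (2, and 0 to 12), the grade steps (147, and 45 to 280) and PTCL minus TZL (1025, and 547 without the 6 arrays). Over its alternatives the log2 difference for LBT minus TZL ran from -3.10 to -1.19 for S1PR1 (adjusted p up to 0.0439) and from 1.37 to 3.34 for SGPL1 (adjusted p up to 1.17e-06), the values nearest 0 being those with low values raised to it. S1PR4 and SPHK1 are limited by signal, since nearly all of their values lie below the minimum.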

Other observations

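The single dog labelled NBNT, a low-grade case, had log2 levels of 5.52 for S1PR1, 3.04 for S1PR4, 2.78 for SPHK1, 1.90 for SGPL1 and 9.65 for FOXO1. These values lie within the range of the TZL dogs for all 5 genes.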
